A study of Mus musculus with 8 samples.

Results

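Complement and clotting both run on proteins that hepatocytes secrete into the blood, and the mRNAs of 37 of these proteins were followed here in mouse liver. The 37 genes were chosen by symbol, and each was found by its Ensembl ID among the 49671 genes of the count table. They comprise 17 complement genes and 20 genes of clotting, fibrinolysis and anticoagulation. All 37 passed the filter on low counts and were among the 13117 genes tested. Each of the 8 libraries was made from the liver of C57BL/6 mice (the C57BL/6N substrain in the study's methods) taken after weaning, and each sex was represented by 2 WT and 2 NT-KO libraries. NT-KO mice were homozygous for a germline deletion at the start of Lbr, the gene of the lamin B receptor, an inner nuclear membrane protein with a sterol reductase domain. The deletion removes the start of translation and leaves the exons of the reductase domain. The mutant colony was bred from 1 edited founder, and it is the whole animal, not only the hepatocyte, that carries the deletion.

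Complement is a cascade of plasma proteases and binding proteins. The classical pathway starts from antibody through C1r and C1s, the lectin pathway from mannose-binding lectins and their proteases, and both cleave C4 and then C3. Cleavage of C5 then lets C5b, C6, C7, C8 and C9 assemble into the membrane attack complex, a pore in the target membrane. Clotting is another protease cascade that ends with thrombin turning fibrinogen into fibrin, held in check by antithrombin, heparin cofactor II and the protein C and S system, and dissolved by plasmin. Liver is the main source of most of these proteins, and mouse serum is long known for lower terminal complement activity in females than in males.

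Library totals ran from 45020377 to 64396291 counts, and the 37 genes took up 2.86% to 3.52% of them. Counts were turned into CPM, the share of a library's scaled total that a gene takes times 1e+06, and 1 count was worth 0.0147 to 0.0236 CPM. The liver label was checked against markers, and the 7 hepatocyte markers matched by symbol summed to 76480 to 112700 CPM, whereas the 6 Kupffer cell markers summed to 124 to 279 CPM. Of 12 genes listed as sex-biased in mouse liver, 11 differed between the sexes in the direction listed. Lbr itself lay between 6.54 and 7.99 CPM in the 4 WT libraries and between 12.8 and 14.04 CPM in the 4 NT-KO libraries, and counts summed over its exons do not show the deletion. Male WT replicate 2 stood apart, with 8687 CPM summed over 13 ER chaperone genes against 2177 to 3878 CPM in the other 7 libraries, and 27230 CPM over 14 acute phase genes against 8069 to 14490 CPM. The labels do not say that replicates came from separate animals, so the p-values below measure the spread between these libraries. In whole liver, fewer cells that express a gene and less mRNA in each cell cannot be told apart.

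Most of the 37 mRNAs are abundant, and they differed far more between genes than between groups. To compare genes, CPM was divided by the length of the gene's principal transcript (RPKM). On that scale Kng1 (kininogen) had the highest mean over the 8 libraries at 1372 RPKM, followed by Fgg at 1339, C3 at 1015, Fga at 942 and F2 (prothrombin) at 773 RPKM. The lowest were Pros1 (protein S) at 15.4, Cfb (factor B) at 8.62 and Masp1 at 4.92 RPKM. Gm20547 covers 79.5% of the exon length of Cfb on the same strand. Its counts were 0 to 1 in the 8 libraries, so reads in both were not counted to both genes. Whether such reads were dropped is not given in the sources used here. The level and rank of Cfb thus cannot be read as its expression. Kng1 and Kng2 shared sequence, 17.2% and 19.4% of their stretches of 50 bases. The highest library exceeded the lowest by less than 2-fold for 23 of the 37 genes. It did so by more than 5-fold for 5, namely C6 at 30.4-fold, C8a at 15.5-fold, C8b at 9.62-fold, C9 at 7.10-fold and Cfb at 5.60-fold in CPM. The map of all 37 genes in the 8 libraries showed this contrast as a block of terminal complement genes that split by sex above a mostly pale field of clotting genes.

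**Figure D1:**
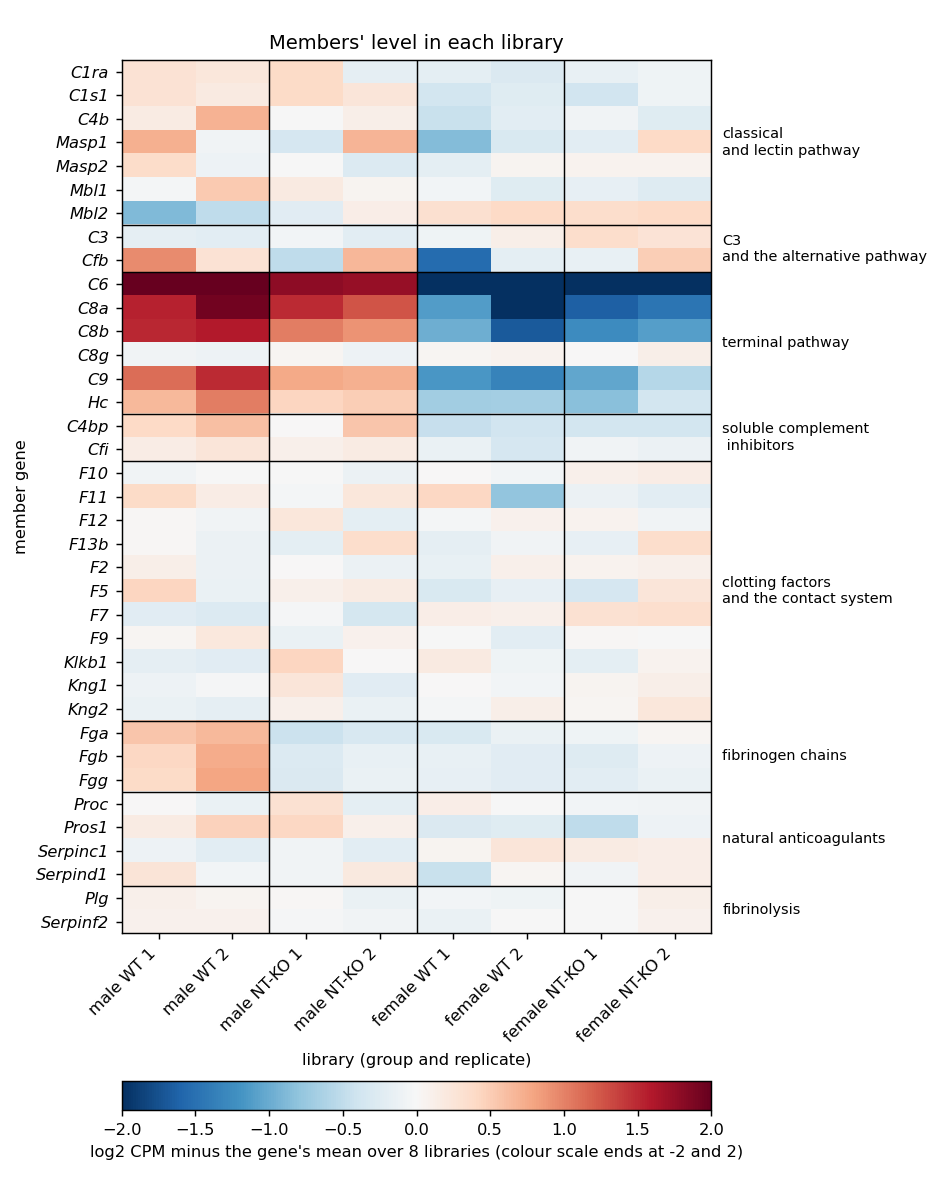
Level of the 37 genes in each library, as log2 CPM minus the gene's mean over the 8 libraries; rows are genes grouped by role, columns are libraries, and red is above and blue below the gene's mean. C6, C8a, C8b, C9 and Hc are red in the 4 male and blue in the 4 female libraries, C8g is near white throughout, and the 3 fibrinogen genes are reddest in male WT.

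The results turn most on the 6 terminal pathway genes and Mbl2, and their promoters are shown before the values. The bases are the 250 ahead of each RefSeq transcription start on GRCm38.p6, 5′ to 3′ on the gene's strand, and capitals mark the motifs searched. C6, C8a, C8b, C9 and Hc (complement C5) are the terminal genes that differed between the sexes, C8g is the terminal gene for which no difference passed the test, and Mbl2 is the gene that differed the other way.
C6 (chr15:4726960-4727209, plus strand): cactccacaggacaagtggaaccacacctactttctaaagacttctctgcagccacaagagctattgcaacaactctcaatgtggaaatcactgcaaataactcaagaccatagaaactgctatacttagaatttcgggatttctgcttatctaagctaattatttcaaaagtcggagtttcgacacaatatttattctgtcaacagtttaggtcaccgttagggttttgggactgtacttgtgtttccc
C8a (chr4:104876399-104876648, minus strand): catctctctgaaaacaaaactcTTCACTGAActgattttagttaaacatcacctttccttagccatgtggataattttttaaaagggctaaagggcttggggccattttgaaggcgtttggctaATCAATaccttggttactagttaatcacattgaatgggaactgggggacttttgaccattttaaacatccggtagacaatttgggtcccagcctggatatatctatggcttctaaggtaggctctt
C8b (chr4:104766067-104766316, plus strand): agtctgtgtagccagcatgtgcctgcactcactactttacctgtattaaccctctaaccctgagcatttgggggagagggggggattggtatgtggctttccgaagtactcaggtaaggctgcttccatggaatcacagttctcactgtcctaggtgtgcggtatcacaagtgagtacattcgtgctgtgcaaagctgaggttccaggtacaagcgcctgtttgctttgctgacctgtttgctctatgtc
C8g (chr2:25501720-25501969, minus strand): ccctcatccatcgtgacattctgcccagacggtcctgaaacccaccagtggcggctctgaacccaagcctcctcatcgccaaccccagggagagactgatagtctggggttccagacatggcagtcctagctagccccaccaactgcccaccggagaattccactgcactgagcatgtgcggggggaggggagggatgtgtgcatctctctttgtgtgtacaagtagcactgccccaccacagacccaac
C9 (chr15:6445096-6445345, plus strand): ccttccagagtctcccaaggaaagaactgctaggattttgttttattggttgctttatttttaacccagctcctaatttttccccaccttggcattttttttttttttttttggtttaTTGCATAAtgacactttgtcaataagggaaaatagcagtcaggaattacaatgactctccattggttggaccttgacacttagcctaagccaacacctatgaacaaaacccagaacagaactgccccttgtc
Hc (chr2:35061413-35061662, minus strand): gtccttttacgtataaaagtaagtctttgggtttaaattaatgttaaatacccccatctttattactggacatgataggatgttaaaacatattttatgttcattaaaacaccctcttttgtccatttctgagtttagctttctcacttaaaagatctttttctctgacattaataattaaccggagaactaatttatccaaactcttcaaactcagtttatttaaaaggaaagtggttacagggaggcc
Mbl2 (chr19:30232678-30232927, plus strand): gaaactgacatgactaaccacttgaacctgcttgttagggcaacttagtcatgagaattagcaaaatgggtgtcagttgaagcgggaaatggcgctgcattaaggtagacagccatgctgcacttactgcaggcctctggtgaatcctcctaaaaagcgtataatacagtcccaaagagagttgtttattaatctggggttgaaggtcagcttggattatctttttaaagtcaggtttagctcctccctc

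The RefSeq table, which spans 250 bases before to 50 after each start, held 30 of the 37 genes. C4b, Cfb, Cfi, Kng1, Masp1, Plg and Proc had no entry. Both strands of each window of 300 bases were searched for TTCNNNGAA, the core that STAT5 binds, for ATTGAT, a core shared by HNF6 and CUX2, and for TTGCNNAA, a core of the C/EBP site. These 3 motifs do not overlap in the printed sequences. TTCNNNGAA was in 7 of the 30 windows (23.3%) and in 8.3% of all 32851 promoters in the table. ATTGAT was in 5 of the 30 (16.7%, all promoters 7.54%) and TTGCNNAA in 11 of the 30 (36.7%, all promoters 10.8%). Of the 7 printed promoters, C8a held TTCNNNGAA with its first base at -228 and ATTGAT at -126, and C9 held TTGCNNAA at -132. None of the 3 motifs was in the windows of C6, C8b, C8g, Hc or Mbl2, which says only that these letters are not there. A match describes the letters and is not a binding site.

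Sex was the main divide among the 37 genes. Males had more mRNA of 5 of the 6 terminal complement genes, from 2.45-fold for Hc to 19.1-fold for C6, while the mRNA of Mbl2, a mannose-binding lectin, was lower in males. Male and female libraries were compared over both genotypes with edgeR's quasi-likelihood test, with a Benjamini-Hochberg FDR over all 13117 genes. At an FDR of at most 0.05, 9 of the 37 genes differed, where 8.15% of all tested genes passed. Of these, 8 were higher in males, where 3.82% of all tested genes were, and 1 was lower, where 4.33% were. The 8 were C1s1, C4bp, C6, C8a, C8b, C9, Hc and Pros1. They were unevenly spread, with 8 of the 17 complement genes and 1 of the 20 clotting genes among the 9 called. The median log2 fold change was 0.53 over the complement genes and 0.02 over the clotting genes, against 0.01 over all tested genes. All 4 male libraries lay above all 4 female libraries for 11 of the 37 genes, and all below for 3, where 7.6% and 8.5% of all tested genes did so.

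C6 (chr15:4727175-4814967, plus strand, GRCm38) encodes the component that binds C5b to start the attack complex. It had 424 and 359 CPM in WT and 241 and 233 CPM in NT-KO males, and 16.9 and 13.9 CPM in WT and 15.8 and 17.3 CPM in NT-KO females. The male and female ranges were far apart, and both male NT-KO libraries lay below both male WT libraries. Over both genotypes C6 was 19.1-fold higher in males (log2 fold change 4.25, SE 0.14, FDR 3.01e-06). No other of the 37 genes had a larger fold change in this comparison.

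C8 is made of 3 chains, of which the alpha and beta chains enter the membrane and the gamma chain is a small lipocalin bound to alpha. C8a (chr4:104815679-104876398, minus strand), the alpha chain, had 865 and 1135 CPM in WT and 840.1 and 711 CPM in NT-KO males, and 138 and 73.3 CPM in WT and 96.3 and 108 CPM in NT-KO females. C8b (chr4:104766317-104804548, plus strand), the beta chain, had 537 and 567 CPM in WT and 384 and 350 CPM in NT-KO males, and 95.4 and 58.9 CPM in WT and 78.5 and 87.5 CPM in NT-KO females. In both genes every male library exceeded every female library, and within females the 2 WT libraries enclosed the 2 NT-KO libraries. C8a was 8.49-fold higher in males (log2 fold change 3.08, SE 0.23, FDR 0.00015) and C8b 5.62-fold (log2 fold change 2.49, SE 0.17, FDR 0.000104). The 2 genes point toward each other on chromosome 4 with 11130 bases between them.

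For the gamma chain gene no such split was seen. C8g (chr2:25498651-25501719, minus strand) had 507 and 496 CPM in WT and 544 and 492 CPM in NT-KO males, and 545 and 554 CPM in WT and 534 and 572 CPM in NT-KO females. The ranges of the sexes overlapped over both genotypes, although both WT males lay below both WT females, and the whole span was 1.16-fold, the narrowest of the 37 genes. Its log2 fold change between the sexes was -0.11 with a 95% interval of -0.37 to 0.15 (FDR 0.564), an interval that lies wholly below those of C8a (2.57 to 3.60) and C8b (2.10 to 2.88). Per length, C8a and C8b averaged 246 and 205 RPKM in males beside 443 RPKM for C8g. In females they averaged 28.7 and 35.8 RPKM beside 479 RPKM for C8g. The ratio of C8a to C8g reads was 1.45 to 2.29 in the 4 male and 0.132 to 0.253 in the 4 female libraries.

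C9 (chr15:6445327-6498751, plus strand), whose protein polymerises into the wall of the pore, had 820.4 and 1063 CPM in WT and 639 and 617 CPM in NT-KO males, and 168 and 149.7 CPM in WT and 184 and 254 CPM in NT-KO females. Hc (chr2:34983331-35061438, minus strand), which encodes complement C5, had 1158 and 1495 CPM in WT and 986 and 1035 CPM in NT-KO males, and 454 and 459 CPM in WT and 409.9 and 568 CPM in NT-KO females. Every male library was above every female library for both genes. C9 was 4.13-fold higher in males (log2 fold change 2.04, SE 0.16, FDR 0.000207) and Hc 2.45-fold (log2 fold change 1.29, SE 0.16, FDR 0.00245). C7, the remaining component of the complex and not among the 37 genes, did not pass the filter, which used CPM before library scaling. Its 19 to 63 counts came to 0.529 to 1.20 scaled CPM in male and 0.323 to 0.505 scaled CPM in female libraries. C6, C8a, C8b and C9 shared no stretch of 50 bases with another annotated transcript, and Hc shared 0.48% of its stretches.

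**Figure D2:**
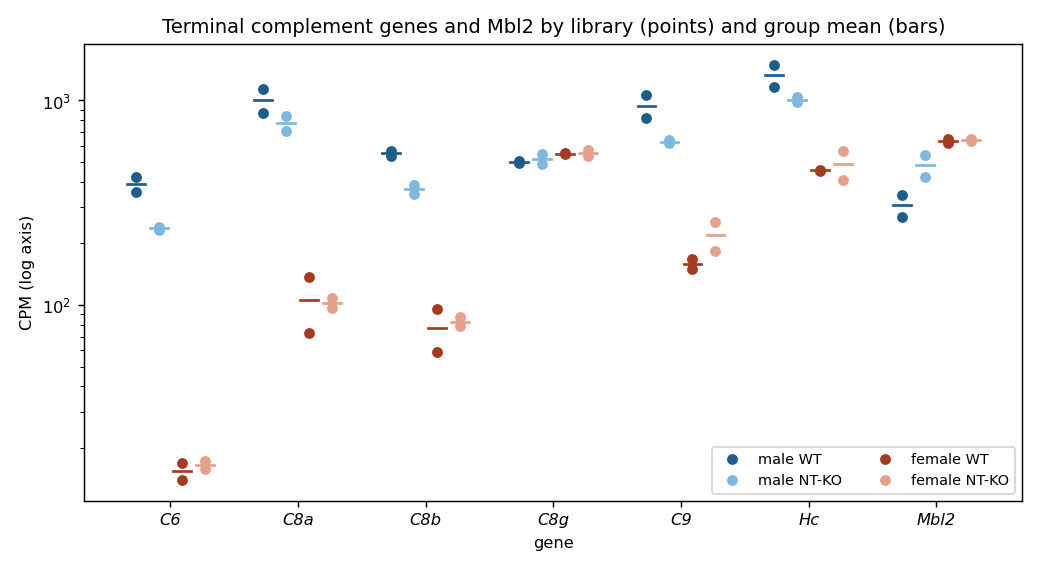
CPM of the 6 terminal complement genes and of Mbl2 on a log axis; points are the 2 libraries of each group and bars their mean. Male points lie above female points for C6, C8a, C8b, C9 and Hc, the C8g points span 1.16-fold over all groups, and Mbl2 is lowest in male WT and highest in the female groups.

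Upstream of C5 the called fold changes were smaller. Mbl2 (chr19:30232942-30239687, plus strand), a lectin that binds sugars on microbes, had 268 and 346 CPM in WT and 422 and 541 CPM in NT-KO males, and 617 and 646 CPM in WT and 631 and 646 CPM in NT-KO females. All male libraries were below all female libraries, and male NT-KO lay between male WT and the females. Its log2 fold change was -0.72 in males over females (SE 0.14, FDR 0.021). The other lectin, Mbl1, had 160 and 237 CPM in WT and 186 and 171 CPM in NT-KO males, and 159.5 and 139.8 CPM in WT and 148 and 138 CPM in NT-KO females, and its difference of 0.37 on the log2 scale did not pass (FDR 0.151). The ratio of Mbl2 to Mbl1 reads was 1.46 to 3.16 in male and 3.87 to 4.68 in female libraries.

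C1s1, the protease that cleaves C4 in the classical pathway, had 432 and 399.6 CPM in WT and 462 and 419.6 CPM in NT-KO males, and 274 and 299 CPM in WT and 272 and 333 CPM in NT-KO females. Its 4 male values were above its 4 female values, and it was 1.45-fold higher in males (log2 fold change 0.54, SE 0.12, FDR 0.035). C1s1 shared 35.1% of its 50-base stretches with other transcripts, 21.9% with C1s2, which had 1170 to 2936 counts, so its count is uncertain, and the antisense transcript Gm16567 covers 18.4% of its exons with the strand setting of the counting not stated. C1ra, its partner protease, gave 0.37 (FDR 0.138), and C4b, the substrate, 0.49 (FDR 0.104), and neither passed. C1ra shared 50.8% of its stretches, 48.02% with C1rb, and C4b shared 34.6% of its stretches with C4a. C4a, known as sex-limited protein and not among the 37 genes, had 12305 to 29610 counts in male and 1998 to 3033 in female libraries (log2 fold change 3.47, SE 0.23, FDR 8.62e-05), and how reads were divided between the pair was not tested.

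C3, the point where all pathways meet, had 4571 and 4472 CPM in WT and 4966 and 4436 CPM in NT-KO males, and 4871 and 5617 CPM in WT and 6568 and 6223 CPM in NT-KO females, with overlapping sexes and a log2 fold change of -0.33 in males over females (FDR 0.259). Cfb of the alternative pathway and Masp1 of the lectin pathway had low counts that were scattered between replicates, and most of the Cfb exons are shared with Gm20547, as said above. Cfb ranged over 7.26 to 40.7 CPM and its 2 female WT libraries differed by 1.33 on the log2 scale, the widest gap between replicates among the 37 genes. Masp2 gave 0.01 and did not pass, and 54.9% of its exon length is overlapped by Tardbp on the other strand.

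Both soluble inhibitors were higher in the 4 male than in the 4 female libraries, and for C4bp the difference passed the test. C4bp, which binds C4b and serves factor I, had 684 and 790 CPM in WT and 519 and 762 CPM in NT-KO males, and 378 and 397 CPM in WT and 403 and 404 CPM in NT-KO females, and was 1.74-fold higher in males (log2 fold change 0.80, SE 0.15, FDR 0.0186). Cfi, the factor I protease, had 618 and 661 CPM in WT and 596 and 620 CPM in NT-KO males, and 507 and 439.9 CPM in WT and 529 and 514 CPM in NT-KO females (log2 fold change 0.33, SE 0.12, FDR 0.122).

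Among the 20 genes of clotting, fibrinolysis and anticoagulation, Pros1 was the 1 that passed. It encodes protein S, a cofactor of activated protein C, and had 55.3 and 68.2 CPM in WT and 65.9 and 53.2 CPM in NT-KO males, and 40.5 and 41.9 CPM in WT and 34.9 and 46.4 CPM in NT-KO females. Male and female values did not overlap, and Pros1 was 1.48-fold higher in males (log2 fold change 0.57, SE 0.14, FDR 0.0459). F7, the factor that tissue factor activates, came next with 100.5 and 97.4 CPM in WT and 115 and 92.1 CPM in NT-KO males, and 128 and 126 CPM in WT and 144 and 148 CPM in NT-KO females. Every male F7 value was below every female value, but the log2 fold change of -0.43 (95% interval -0.68 to -0.17) missed the threshold at an FDR of 0.0523. Serpinc1 (antithrombin) also separated by library, at 1775 to 1959 CPM in males and 2140 to 2430 CPM in females, with a log2 fold change of -0.30 (FDR 0.225), although Zbtb37 overlaps 34.4% of its exon length on the other strand. Over the 11 clotting and contact factors (F2, F5, F7, F9, F10, F11, F12, F13b, Klkb1, Kng1, Kng2) the log2 fold changes ran from -0.43 to 0.30, and 0 passed, with 1 at an unadjusted p under 0.05. The fibrinogen genes Fga, Fgb and Fgg gave 0.24, 0.36 and 0.38 with overlapping sexes, and none passed (FDR 0.344, 0.184 and 0.171). Fgb and Fgg had an unadjusted p under 0.05. A p no larger than that of Fgb (0.04998, quasi-likelihood test) was reached by 27.1% of all tested genes. That share also stands beside the 1 of the 11 clotting and contact factors. Proc and Serpind1 gave 0.00 and 0.16, and Plg (plasminogen) and Serpinf2 (its inhibitor) gave 0.02 and 0.03.

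**Figure D3:**
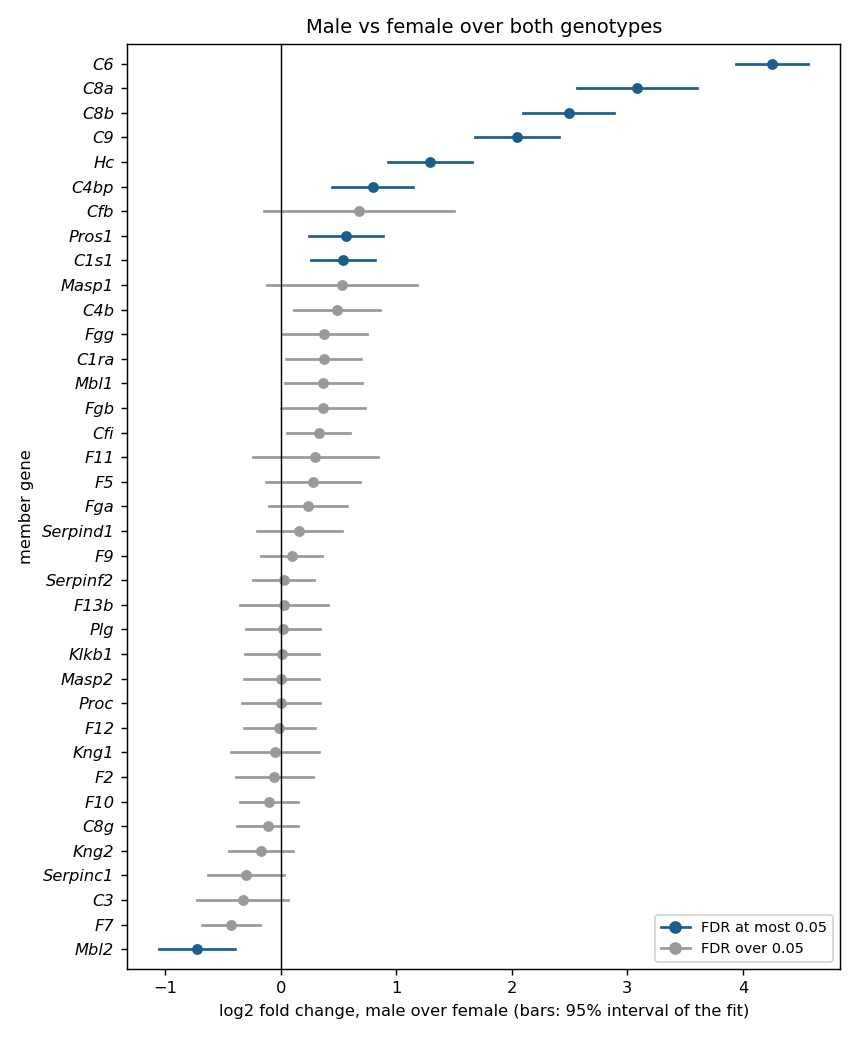
Log2 fold change of males over females, over both genotypes, for the 37 genes; points are the fitted value, bars the 95% interval of the fit, and blue marks an FDR of at most 0.05. C6, C8a, C8b, C9 and Hc lie between 1.29 and 4.25 with intervals clear of 0, and Mbl2 lies at -0.72. Of the clotting genes, Pros1 is blue at 0.57, F7 lies at -0.43 and is not blue, and the others lie between -0.30 and 0.38.

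C6, C8a, C8b, C9 and Hc passed in every alternative run of this comparison. The other 4 calls rested on thinner support: without any 1 of the 4 female libraries the count fell to 5 (all tested genes 4.16% and 3.77% without WT replicates 1 and 2, and 3.8% and 4.68% without NT-KO replicates 1 and 2), and C4bp, Mbl2, C1s1 and Pros1 were lost. With library sizes not scaled, 20 of the 37 genes had a positive log2 fold change in place of 27 (73% of the 37, all tested genes 51.1%), and the median of all tested genes moved to -0.12. Markers of some other cell types also differed in level between the sexes. The 6 Kupffer cell markers summed to 124 to 222 CPM in male and 235 to 279 CPM in female libraries and all 6 were lower in males, with 0 passing the test. The 5 sinusoidal endothelial markers summed to 93.8 to 143 and 147 to 166 CPM, all 5 lower in males and 0 passing. Of the 6 B cell markers, 5.59 to 57.3 CPM in sum in males and 8.83 to 22.9 CPM in females, 4 passed, 1 higher and 3 lower in males. Of the 3 red cell markers, 321 to 797 CPM in males and 138 to 260 CPM in females, 2 passed, both higher in males. The sums of the sexes overlapped for the 5 stellate cell markers, at 178 to 263 CPM in males and 195 to 228 CPM in females. The 4 platelet and megakaryocyte markers, of which 1 was tested, overlapped too, at 4.34 to 6.14 and 4.39 to 5.55 CPM. None of these stellate and platelet markers passed, where 8.15% of all tested genes did. Of the 7 hepatocyte markers 4 were higher in males and 0 passed. The part of these cell types in the sex differences was not tested.

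Within WT alone the same question could be asked of 2 male and 2 female libraries, all of which also entered the comparison over both genotypes. There 7 of the 37 genes passed, where 6.55% of all tested genes did: C4bp, C6, C8a, C8b, C9 and Hc were higher and Mbl2 was lower in males, where 3.13% and 3.42% of all tested genes were. The log2 fold changes were 4.66 for C6 (SE 0.20, FDR 3.24e-05), 3.25 for C8a (SE 0.32, FDR 0.00151) and 2.84 for C8b (SE 0.24, FDR 0.000794). For C9 the value was 2.57 (SE 0.23, FDR 0.000913) and for Hc 1.54 (SE 0.23, FDR 0.00976). Mbl2 gave -1.04 (SE 0.20, FDR 0.0277) and C4bp 0.93 (SE 0.21, FDR 0.0434). Without either female WT library the count was 4 (all tested genes 1.58% and 1.39%), with Hc, C4bp and Mbl2 lost. The 3 fibrinogen genes gave 0.77 to 0.82 and missed the threshold, the lowest FDR being 0.0579 for Fga.

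The other genes of the 37 are given by their lowest and highest level over the 8 libraries. Of the contact system, Kng1 and Kng2 (kininogens) lay at 2135 to 2956 CPM and 308 to 409 CPM, Klkb1 (prekallikrein) at 203 to 319 CPM, F12 at 353 to 474 CPM and F11 at 35.7 to 82.5 CPM. Gm45753, with 0 to 3 counts, covers 43.2% of the exon length of Klkb1 on the same strand, so the level of Klkb1 is uncertain, as for Cfb. Prothrombin (F2) lay at 1376 to 1667 CPM, F10, which activates it, at 410 to 492 CPM, and F9, which activates F10, at 158 to 211 CPM. The cofactor F5 lay at 280.3 to 478 CPM and F13b, the carrier subunit of the enzyme that crosslinks fibrin, at 139.6 to 206 CPM. Among these, Masp1 at 13.5 to 40.4 CPM had the widest span relative to its level. Of the anticoagulants, Proc (protein C) lay at 445 to 634 CPM and Serpind1 (heparin cofactor II) at 352 to 575 CPM. Plg lay at 1676 to 1996 CPM, with Slc22a3 over 11.3% of its exon length on the other strand, and Serpinf2 at 537 to 629 CPM, the narrowest span of this set. Of the complement genes, C1ra lay at 202 to 319 CPM, C4b at 802 to 1762 CPM and Masp2 at 123 to 191 CPM.

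Of 49 further genes of the 2 cascades listed for comparison (complement regulators and receptors, other clotting genes and the vitamin K cycle), 40 were tested. Of these, 6 differed between the sexes over both genotypes, where 8.15% of all tested genes did. Among them, the complement genes C4a and C2 and the clotting gene Cpb2 were higher and Cfp was lower in males, which names 4 of the 6. C2, the classical pathway protease that joins C4b, gave 0.66 (FDR 0.0417) and Cpb2, an inhibitor of fibrinolysis, 0.59 (FDR 0.0403). Cfp (properdin), which myeloid cells make and which stabilises the alternative pathway convertase, gave -0.84 (FDR 0.0185). Of the 6 complement receptors and membrane regulators tested, 0 passed and all 6 had negative values, from -0.50 to -0.09. C2, Cpb2 and Cfp were named after their values were seen.

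Loss of the LBR N-terminus was compared next, within each sex and over both. No difference in the 37 genes passed in any of these comparisons with the quasi-likelihood test, for which an absolute log2 fold change over 1 was asked besides the FDR of at most 0.05. In males 0 of the 37 passed, where 0.0152% of all tested genes (2 genes) did, and 7 of the 37 had an unadjusted p under 0.05, where 11.7% of all tested genes had. The likelihood ratio test and DESeq2 with the same thresholds also called 0 of the 37, where they called 1.56% and 1.66% of all tested genes. Without the minimum fold change the quasi-likelihood test still called 0 (all tested genes 0.0152%), the likelihood ratio test called 1 (Fga, all tested genes 1.94%) and DESeq2 called 4 (C6, Fga, Fgb and Fgg, all tested genes 2.35%). In simulated counts at this depth, the quasi-likelihood test at the FDR alone recovered 27% of genes changed 2-fold in this comparison. Of those changed 4-fold it recovered 91%. The minimum fold change was not applied to the simulated counts, so these shares are upper limits for the rule used here. An exact permutation test of 2 against 2 libraries cannot go below 0.333 and was not used.

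The 3 fibrinogen chains gave the largest fold changes of the 37 genes in males with all libraries included. Fga, the alpha chain gene, had 3471 and 3690 CPM in WT and 1753 and 1890 CPM in NT-KO males, and 1901 and 2153 CPM in WT and 2214 and 2423 CPM in NT-KO females. Fgb, the beta chain gene, had 3457 and 4316 CPM in WT and 2145 and 2328 CPM in NT-KO males, and 2342 and 2223 CPM in WT and 2180 and 2419 CPM in NT-KO females. Fgg, the gamma chain gene, had 2861 and 3776 CPM in WT and 1802 and 1998 CPM in NT-KO males, and 1963 and 1883 CPM in WT and 1887 and 1993 CPM in NT-KO females. For each chain both male WT libraries were above the other 6 libraries, and the male NT-KO values lay below the female range for Fga and overlapped it for Fgb and Fgg. The difference between NT-KO and WT males was -0.98 on the log2 scale for Fga (95% interval -1.46 to -0.49, FDR 0.195), -0.80 for Fgb (SE 0.23, FDR 0.265) and -0.80 for Fgg (SE 0.23, FDR 0.263), none past the threshold. The genes sit side by side in the order Fgg (chr3:83007724-83015049), Fga (chr3:83026076-83033627) and Fgb (chr3:83040141-83049863), with 11026 and 6513 bases between them. The ratio of Fga to Fgb reads stayed between 0.81 and 1.02, and that of Fgg to Fgb between 0.82 and 0.87, in all 8 libraries.

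ER chaperone and acute phase genes also differed in level between these libraries. The 13 ER chaperones summed to 3878 and 8687 CPM in male WT and to 2177 and 2663 CPM in male NT-KO, with all 13 lower in NT-KO and 0 past the threshold. The 14 acute phase genes summed to 12440 and 27230 CPM in male WT and to 12350 and 14490 CPM in male NT-KO, with 13 of 14 lower and 0 past the threshold. Without male WT replicate 2, which was highest in both sums, the fibrinogen values were -0.63 for Fgb and -0.59 for Fgg, and Fga stayed between -1.04 and -0.92 whichever library was left out. Without male WT replicate 2, C6 was at -0.84 and Mbl2 at 0.85, both larger in size than Fgb and Fgg. The part of these gene groups in the fibrinogen difference was not tested.

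**Figure D4:**
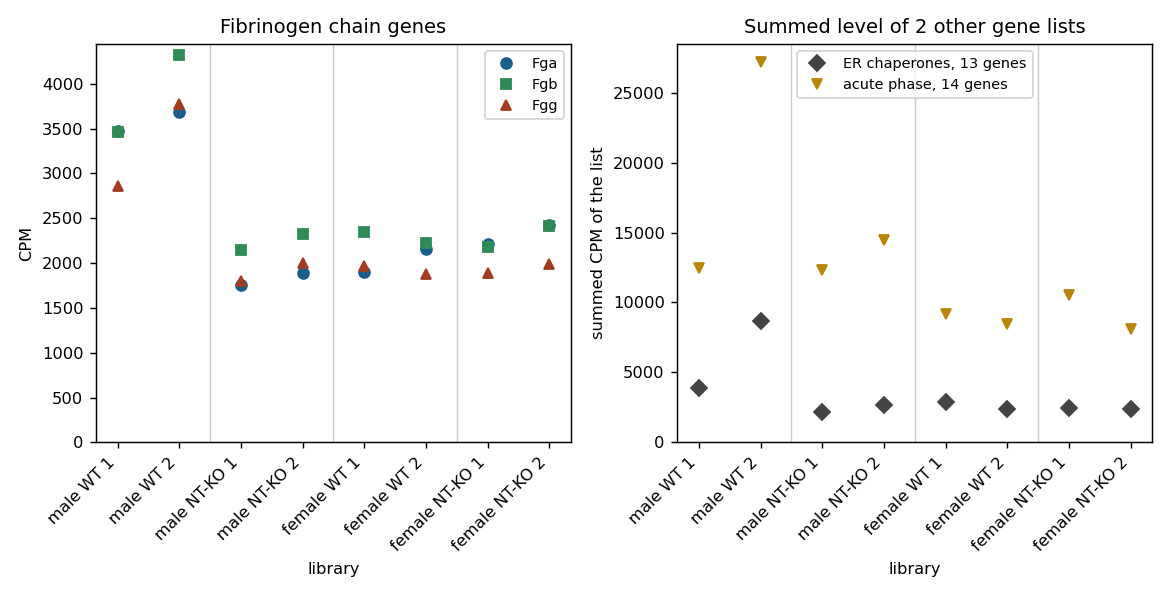
Left, CPM of Fga, Fgb and Fgg in each of the 8 libraries; right, summed CPM of 13 ER chaperone genes and of 14 acute phase genes in the same libraries, both on linear axes from 0. The 2 male WT libraries hold the highest values of all 3 chains, 2861 to 4316 CPM, and male WT replicate 2 holds the highest sum of both lists.

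Terminal complement and Mbl2 were the other genes of the 37 with an unadjusted p under 0.05 in males. C6 was lower in both male NT-KO libraries than in both male WT libraries, at 237 ± 5.98 CPM against 391 ± 45.8 CPM (SD, n = 2 each), with a log2 fold change of -0.72 (SE 0.17, FDR 0.208). C9 and C8b gave -0.58 and -0.59 (FDR 0.368 and 0.382), with 628 ± 15.3 CPM against 942 ± 172 CPM and 367 ± 24.1 CPM against 552 ± 21.3 CPM. Mbl2 was at 482 ± 84.2 CPM in NT-KO and 307 ± 55.2 CPM in WT, with both NT-KO values above both WT values and a log2 fold change of 0.65 (SE 0.20, FDR 0.284). None of these 4 passed. Across the 37 genes 25 had a negative and 12 a positive log2 fold change (32.4% positive, all tested genes 51.7%), with a median of -0.12 against 0.01 over all tested genes. With library sizes not scaled the split was 20 negative and 17 positive. Both male NT-KO libraries lay below both male WT libraries for 11 genes and above them for 2, where 19.2% and 19.6% of all tested genes did so. The male WT libraries enter both this comparison and that of WT males with WT females.

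In females 0 of the 37 passed, where 0.00762% of all tested genes (1 gene) did, and 0 had an unadjusted p under 0.05, where 1.59% had. The likelihood ratio test and DESeq2 also called 0, with and without the minimum fold change, where they called 0.0839% and 0.0381% of all tested genes. The 5 genes with the smallest p were C9 at 0.46 (95% interval -0.04 to 0.96), Cfb at 0.92 (-0.24 to 2.09), Masp1 at 0.69 (-0.23 to 1.60), F7 at 0.20 (-0.16 to 0.56) and C3 at 0.29 (-0.27 to 0.85) on the log2 scale, all with an FDR of 0.9999. C6 was at 16.6 ± 1.06 CPM in NT-KO and 15.4 ± 2.11 CPM in WT (SD, n = 2 each). Fga, Fgb and Fgg gave 0.19, 0.01 and 0.01, with intervals of -0.29 to 0.68, -0.50 to 0.52 and -0.50 to 0.53. Of the 37 log2 fold changes 30 were positive (81.1%, all tested genes 50.3%), with a median of 0.11 against 0.00 over all tested genes, and 25 were positive with library sizes not scaled. Both NT-KO libraries lay above both WT libraries for 13 genes and below them for 1, where 12.2% and 14.2% of all tested genes did so.

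**Figure D5:**
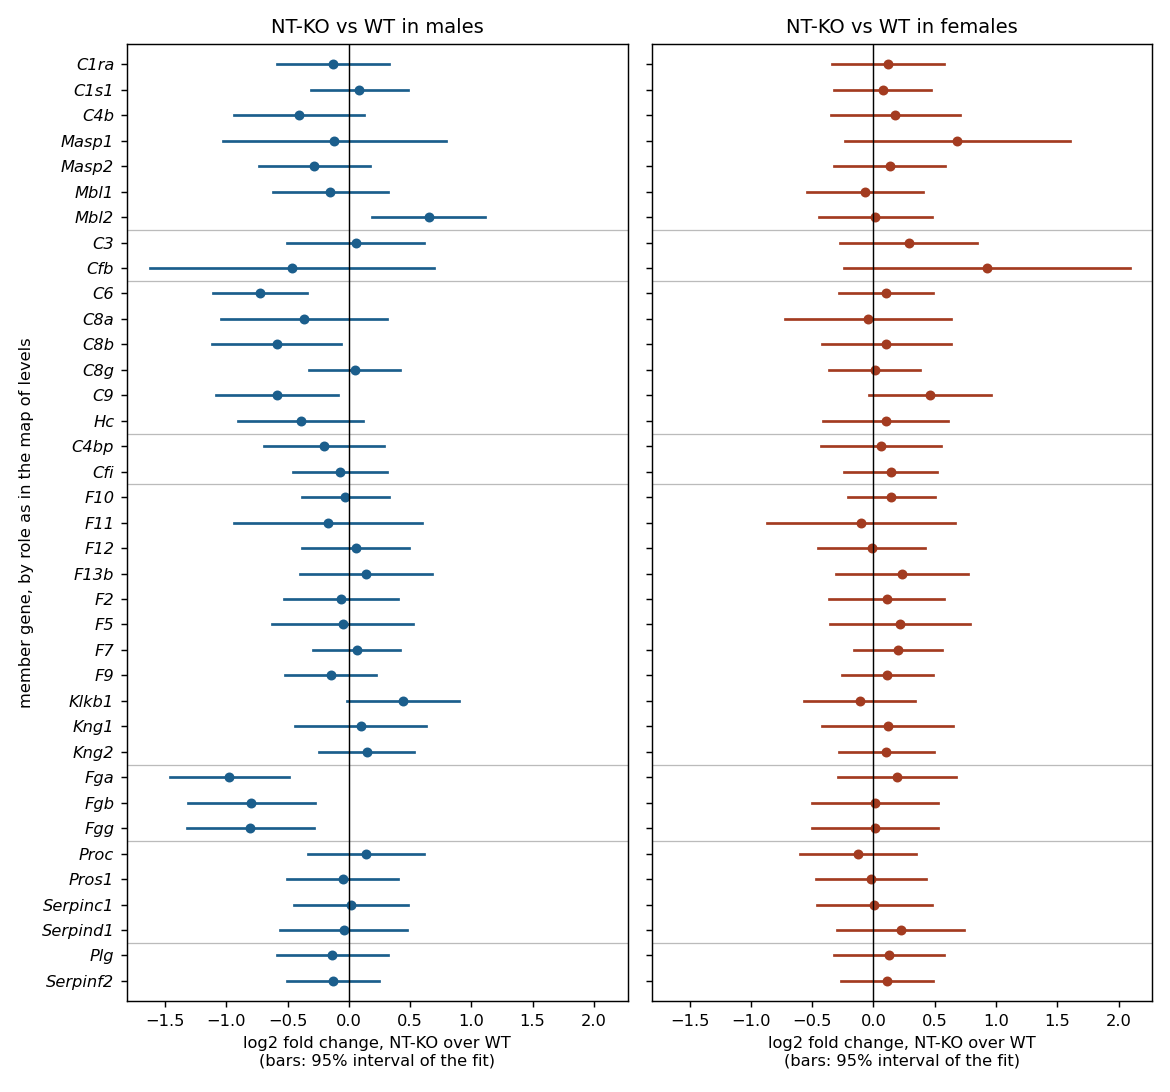
Log2 fold change of NT-KO over WT for the 37 genes in males (left) and females (right), in the order of roles of the map of levels; points are the fitted value and bars the 95% interval of the fit. In males the intervals of Fga, Fgb, Fgg, C6, C8b and C9 lie below 0 and that of Mbl2 above 0, none with an FDR of at most 0.05, and in females all 37 intervals include 0.

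Over both sexes 0 of the 37 genes passed, where 0.0152% of all tested genes did, and 5 had an unadjusted p under 0.05, where 5.51% had. The likelihood ratio test and DESeq2 called 0 as well, where 0.29% and 0.297% of all tested genes passed. The 5 were Fga at -0.39, Fgg at -0.40, Fgb at -0.39, C6 at -0.31 and Mbl2 at 0.33 on the log2 scale, with FDRs from 0.872 to 0.896. Each value is the mean of the male and the female difference given above.

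Whether the NT-KO difference itself differed between the sexes was tested by the interaction, females minus males. At an FDR of at most 0.05, 0 of the 37 genes passed, where 0.0152% of all tested genes did, and 5 had an unadjusted p under 0.05, where 7.35% had. Those 5 were Fga at 1.17 (SE 0.30, FDR 0.565), C9 at 1.05 (FDR 0.565), C6 at 0.83 (FDR 0.565), Fgg at 0.82 (FDR 0.642) and Fgb at 0.81 (FDR 0.642). DESeq2 called 1, Fga at an FDR of 0.00278, the range over all alternatives being 0.00278 to 0.942, and the likelihood ratio test called 0. Over all tested genes DESeq2 called 0.473% and the likelihood ratio test 0.351%. Of the 40 further pathway genes, 0 passed in any of the comparisons of NT-KO with WT or in the interaction with the quasi-likelihood test. An unadjusted p under 0.05 was reached by 4 in males (all tested genes 11.7%) and by 1 in females (1.59%). With the sexes pooled 2 reached it (5.51%), and in the interaction 3 (7.35%).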

How the data were processed

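RNA from mouse liver was sequenced in 8 libraries made with a TruSeq RNA kit. The authors used cutadapt for trimming, STAR (2.6.1a in the submitters' processing notes) for alignment to GRCm38 and featureCounts for reads per Ensembl gene. The deposited values are these raw counts, with no normalization or filter. The strand setting and the treatment of reads that map to several genes are not given in the sources used here, which bears on genes with near-identical or antisense partners. Each column was assigned to its sample by the labels, and 0 columns were left unused.

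Symbols, positions and lengths came from GENCODE M21 (GRCm38), in which 49412 of 49671 IDs were found, and promoter bases from RefSeq (GRCm38.p6). CPM with TMM scaling and all tests were made in R 4.3.3 with edgeR 4.0.16; limma 3.58.1 was loaded with it, and DESeq2 1.42.0 served as an alternative. A gene had to reach 1 CPM, before TMM scaling, in 2 or more libraries, and mitochondrial, rRNA and miRNA genes were dropped, leaving 13117. A quasi-likelihood model with 1 mean for each of the 4 groups was fitted to all 8 libraries (common biological coefficient of variation 0.217). The standard error is the log2 fold change divided by the square root of F. The FDR is Benjamini-Hochberg over all 13117 genes. A gene was called at an FDR of at most 0.05, and in the comparisons of NT-KO with WT also at an absolute log2 fold change over 1. Library totals of 45020377 to 64396291 counts leave counting error small beside the spread between replicates: chi-square per degree of freedom between replicates was 112 to 278.

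Each of the 37 genes is given with its level, by library or as the range over the libraries. Those called, and the 5 with the smallest p in each comparison, have their statistics given. Listed genes outside the 37 were to be named where called, at most 6 per comparison and largest change first. For males against females this was not followed: 7 are named, C4a for the sequence it shares with C4b and the others from their values, and some genes called are not reported here. The members and gene lists were chosen with earlier results of these data known. The test was tried on simulated counts for the 13117 genes: for males against females it recovered 75% of genes changed 2-fold and 99% of those changed 4-fold. Alternatives were the likelihood ratio test, DESeq2, other dispersion settings, scalings, filters and thresholds, the replicate number as a block, and leaving out each library.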

Additional observations from a re-analysis of the deposited data

How the results depend on the processing

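For NT-KO against WT in males, 0 of the 37 genes were called except with no minimum fold change, a setting chosen after seeing the data, where the likelihood ratio test called 1 (all tested genes 1.94%) and DESeq2 called 4 (2.35%). For the difference between the sexes in that effect, DESeq2 called 1 (0.473%). For males against females over both genotypes (9 called, all tested genes 8.15%), the count was 5 at an FDR of at most 0.01 (2.87%), 5 with a minimum log2 fold change of 1 (4.25%), and 5 to 10 with 1 library left out, the lowest without any 1 of the 4 female libraries (3.77% to 4.68%). For males against females in WT (7 called, 6.55%), it was 11 with the likelihood ratio test (13%), 13 with DESeq2 (13.7%), and 4 to 8 with 1 library left out, the lowest without either female WT library (1.58% and 1.39%). The cause was not tested. Replicate numbers showed no sign of pairing. Deviations of same-numbered WT and NT-KO libraries from their group means correlated at -0.00665 in males and 0.023 in females over 13117 genes. With 2 libraries a group this cannot show that the samples were unpaired. With the replicate number as a block, 7 genes were called for males against females over both genotypes (all tested genes 6.01%) and 6 in WT (4.02%). For every NT-KO comparison and the interaction it was 0 (all tested genes 0% to 0.0229%). Of the counts under an alternative, 13 moved away from 0 or beyond 1.5 times the main count in either direction, and 110 did not. In the NT-KO comparisons and the interaction, the counts that did not move were 0 in both runs. A stricter FDR could not raise a count of 0. Of the log2 fold changes of named genes under an alternative, 582 kept their direction and side of the threshold, 46 kept their direction but lost the call (of C1s1, Pros1, C4bp, Mbl2, or of Hc in WT), and 1 gained it. Unscaled library sizes moved the median log2 fold change of all genes by more than 0.1 for males against females, to -0.12 over both genotypes and -0.18 in WT. For the interaction that median went from -0.01 to -0.10. The members' medians were then 0.11, 0.16 and 0.15. Their positive values were 20, 22 and 24 of 37 in place of 27, 26 and 29. With 2 libraries a group, 2-fold differences in NT-KO males were often below what the test could call.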

Other observations

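Regulators that liver is known to express were listed beside the 2 cascades. Of 14 liver transcription factors tested, 3 differed between the sexes over both genotypes, where 8.15% of all tested genes did. Among the 3, 1 was lower and 2 were higher in males. Cux2, a factor known from female mouse liver, was at 0.247, 0.448, 0.631 and 0.343 CPM in the male and 99.5, 38.4, 62.4 and 53.9 CPM in the female libraries (FDR 4.26e-05). Foxa3 gave a log2 fold change of 1.66 (FDR 0.00147) and Stat3 of 0.67 (FDR 0.0154). The 3 were named after their values were seen, and their relation to the complement genes was not tested. Groups of 2 libraries are too small for a test for outlying samples.

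Several of the 37 genes lie near others of the 37 in the genome, with genes outside the 37 not considered. C6 and C9 are the widest pair given here, 1630.4 kb apart on chromosome 15 on the same strand, and both were higher in males. F7 and F10 lie 1.5 kb apart on chromosome 8, with log2 fold changes between the sexes of -0.43 and -0.10. F11 and Klkb1 lie 4.7 kb apart on that chromosome, with 0.30 and 0.01, and C1ra and C1s1 6.9 kb apart on chromosome 6, with 0.37 and 0.54. Within these pairs only C1s1, C6 and C9 passed the test.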
